A study of Oryza sativa with 12 samples.

Results

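This account describes 1658 transcribed loci of rice that the submitters added to the gene catalogue and that carry no wording of a transposon. They were chosen by identifier and description: all loci outside the annotation whose deposited description mentions neither transposition nor a retrovirus-related or reverse transcriptase protein. They make up 1658 of 1696 unannotated loci and 4.08% of the 40674 rows counted, and the rule uses no measured value. Such loci are taken here to be listed where reads were assembled, whereas annotated genes are listed whether or not they are read. Comparisons of the loci with all rows or all features carry this difference. The sources used here do not say how the loci were added or from which reads. Each is therefore named by its chromosome and start in the deposited coordinates.

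A gene catalogue lists the transcripts known when it was made, and assembly of sequencing reads adds stretches that are transcribed outside it. Such loci can be genes that were missed, long RNAs that encode no protein, extensions of a neighbouring gene, or transcribed repeats that are silent in most conditions. In plants, heat is known to raise the transcription of some repeats that are otherwise silenced.

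RNA was sequenced from the aerial organs of 12-day-old seedlings of 2 near-isogenic rice lines, which share most of their genome. By the labels NIL-TT2HJX, here HJX, has the wild-type allele, and NIL-TT2HPS32, here HPS32, has lost the function of TT2, a rice thermotolerance locus whose product is a G protein gamma subunit. Seedlings of both lines stayed at 28 °C or spent 20 h at 42.5 °C, which gives 4 groups of 3 libraries, and the labels name no further agent or transgene. The labels do not say whether the libraries of a group are separate plants, so p-values measure only the spread between these libraries. Levels are CPM, read counts relative to the size of the library, which was scaled by the trimmed mean of M-values (TMM), and errors of levels are SDs over 3 libraries.

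The libraries held 14785975 to 17871972 reads assigned to genes. TMM scaled the libraries by factors of 0.843 to 0.890 at 28 °C, 1.06 to 1.07 for HJX under heat and 1.26 to 1.28 for HPS32 under heat. With total counts in place of TMM, the median log2 change of all features with heat moved to 0.32 in HJX and 0.54 in HPS32, and the median difference of the heated lines to 0.28. Levels and log2 changes below use TMM unless another scaling is named, while shares of the reads of a library use no such scaling. Os01g0600900, a light-harvesting gene of green tissue, was read at 15300 ± 1740 CPM in HJX and 14900 ± 756 CPM in HPS32 at 28 °C, and at 138 ± 43.3 and 406 ± 97.8 CPM under heat. The root silicon channel gene LSI1 (Os02g0745100) was at 10.3 ± 3.27 and 9.92 ± 1.5 CPM at 28 °C. TT2 itself (Os03g0407400) was read only 9, 7, 8 and 16 times in the 4 groups, too few to check the genotype labels. In such bulk samples, fewer cells of a type and less RNA per cell cannot be told apart.

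The unannotated loci were shorter than annotated genes, mostly of several exon blocks, and mostly without a recognisable protein. Their exon length had a median of 982 bases and ran from 200 to 14849, against a median of 1358 bases for annotated genes. Only 310 of them (18.7%) had exons equal in length to their span, that is a single block, against 32.3% of annotated genes. A description was present for 306 loci (18.5%), of which 262 had a protein match and 172 a protein domain, while 1352 (81.5%) had none. The loci lay on all numbered chromosomes, from 105 on chromosome 10 to 189 on chromosome 1, with 33 on other sequences, and 816 were on the plus strand against 842 on the minus strand. Per 100 annotated genes there were 3.51 loci on chromosome 2 and 5.32 on chromosome 9, the ends of the range.

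Most loci lay farther than 1 kb from the nearest annotated gene, but a minority lay farther than 5 kb. The gap had a median of 2499 bases. In all, 1160 loci (70.0%) lay farther than 1 kb from any annotated gene, and 520 (31.4%) farther than 5 kb. Within 1 kb, 247 loci lay on the other strand from the nearest gene, 127 lay upstream of it on the same strand and 90 downstream on the same strand. Another 2 loci overlapped an annotated gene on the same strand, and 32 lay on sequences that hold no annotated gene. Among themselves, 139 loci overlapped at least 1 other such locus, in 63 pairs on opposite strands and 11 on the same strand. The strand setting of the counting is not given in the sources used here, so reads of such pairs, and of loci opposite an annotated gene, cannot be told apart.

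Expression of these loci was low. Of the 1658 loci, 36 had no read in any library and 108 had fewer than 10 reads over all 12. The filter on low counts left 1246 of them (75.2%) to be tested, among 25473 features in all. Per kb of exon, the tested loci had a median of 1.30 CPM in HJX and 1.28 CPM in HPS32 at 28 °C, against 8.89 and 8.97 CPM per kb for tested annotated genes. Under heat the medians were 2.08 and 2.12 CPM per kb for the loci and 8.63 and 8.89 for annotated genes. A locus read in a single group can pass the filter through that group, so the tested loci are not a sample of all 1658.

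Under heat the unannotated loci took more than 3 times their share of the reads at 28 °C, in both lines. At 28 °C they held 0.556, 0.591 and 0.641% of the assigned reads in the HJX libraries and 0.596, 0.585 and 0.606% in the HPS32 libraries. Under heat they held 2.21, 2.24 and 2.15% in HJX and 1.93, 1.97 and 1.97% in HPS32. Every heat library was above every library at 28 °C, and the HPS32 heat libraries were all below the HJX heat libraries. The mean difference between heat and 28 °C was 1.48 percentage points (exact two-sided permutation within lines, p = 0.005, the smallest that 400 arrangements can give). The difference of -0.244 points between the lines under heat had an exact two-sided permutation p of 0.1, the smallest that 3 against 3 libraries allow. Leaving the 20 most read genes out of the total gave 1.52 points between heat and 28 °C, and leaving out the 10 most read loci gave 0.747 points.

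**Figure D1:**
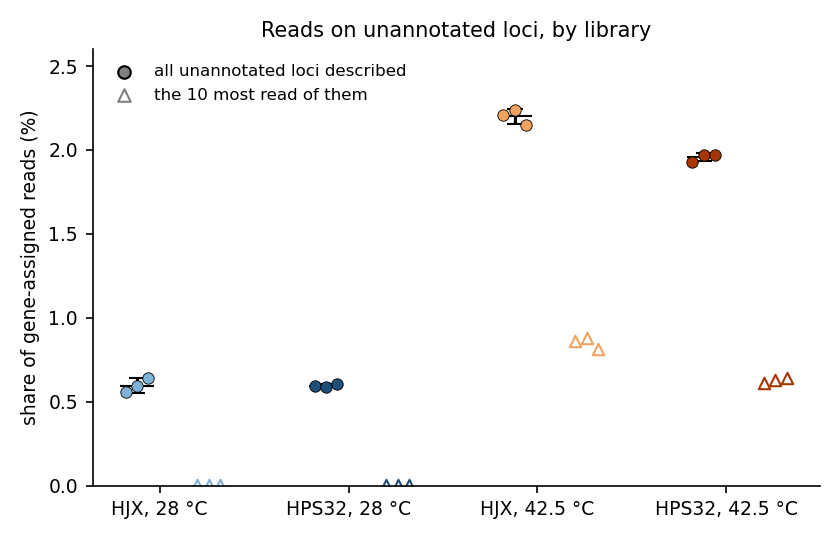
Share of gene-assigned reads (y axis, percent) on the 1658 unannotated loci in each library (circles, with mean and SD over 3 libraries) and on the 10 most read of them (open triangles), by line and temperature. All 6 heat libraries lie between 1.93 and 2.24%, and all 6 libraries at 28 °C between 0.556 and 0.641%.

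A small number of loci carried much of this rise. The 10 loci with the highest mean CPM over all 12 libraries, lettered A to J, held 0.574 to 1.07% of the reads on unannotated loci at 28 °C. Under heat they held 38.0 to 39.2% of them in HJX and 31.7 to 32.5% in HPS32. All 10 were read far more under heat in every library of both lines. Their mean level includes the heat libraries, so the choice favours loci high under heat, and their rise is only a description. None of the 10 has a protein match. The domains found were a GAG-pre-integrase domain, known from retroelement proteins, in locus E and a SWIM zinc finger, found in proteins related to mobile elements among others, in locus I.

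Locus A, the most read, lies on chromosome 4 from 27165419 to 27177506 with 10502 bases of exon, and no description. In HJX it stood at 7.94, 16.8 and 6.72 CPM at 28 °C and at 2710, 2848 and 2437 CPM under heat. In HPS32 it stood at 7.10, 9.97 and 10.3 CPM at 28 °C and at 1511, 1284 and 1423 CPM under heat. The heat libraries of HPS32 were all below those of HJX, and all lay far above the levels at 28 °C, a log2 rise of 7.98 ± 0.34 (SE) in HJX and 7.26 ± 0.33 in HPS32 (adjusted p = 1.20e-08 and 2.81e-08). Per kb of exon, locus A went from rank 21416 to rank 223 of 25473 features in HJX and from rank 21769 to rank 478 in HPS32.

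Locus F (chromosome 1, 15878109 to 15881101, 954 bases of exon) had the largest change of the 10. It was read at 0.655, 0.522 and 1.16 CPM in HJX and 0.293, 0.854 and 0.282 CPM in HPS32 at 28 °C. Under heat it reached 646, 630 and 626 CPM in HJX and 389, 418 and 387 CPM in HPS32. Its log2 rise was 9.67 ± 0.18 in HJX and 9.68 ± 0.19 in HPS32 (adjusted p = 1.04e-17 and 2.88e-17), and it ranked 50 of 25473 per kb of exon in HJX under heat. Locus D (chromosome 8, from 13481715, 1085 bases of exon) and locus B (chromosome 3, from 1131843, 1229 bases) were alike in level. Locus D went from 5.23 ± 1.06 to 683 ± 44.0 CPM in HJX and from 5.68 ± 1.97 to 405 ± 14.7 CPM in HPS32. Locus B went from 4.69 ± 1.69 to 708 ± 31.9 CPM in HJX and from 6.41 ± 0.914 to 516 ± 44.2 CPM in HPS32.

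The other 6 of the 10 loci are long, with 3760 to 6456 bases of exon. Locus E (chromosome 6, from 9893367) went from 1.32 ± 0.859 to 765 ± 35.2 CPM in HJX and from 1.14 ± 0.539 to 318 ± 23.8 CPM in HPS32. Locus C (chromosome 12, from 6610776) was the highest of the 10 at 28 °C, with 13.2 ± 4.39 CPM in HJX, and had the smallest log2 rise, 5.74 ± 0.23 in HJX and 5.17 ± 0.23 in HPS32. Locus G (chromosome 4, from 16425409), locus H (chromosome 6, from 21936838), locus I (chromosome 2, from 8734442) and locus J (chromosome 1, from 22029133) reached 536 ± 8.74, 545 ± 13.4, 447 ± 14.8 and 358 ± 31.2 CPM in HJX under heat. In HPS32 under heat they reached 437 ± 8.86, 350 ± 27.2, 344 ± 29.4 and 280 ± 22.5 CPM.

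**Figure D2:**
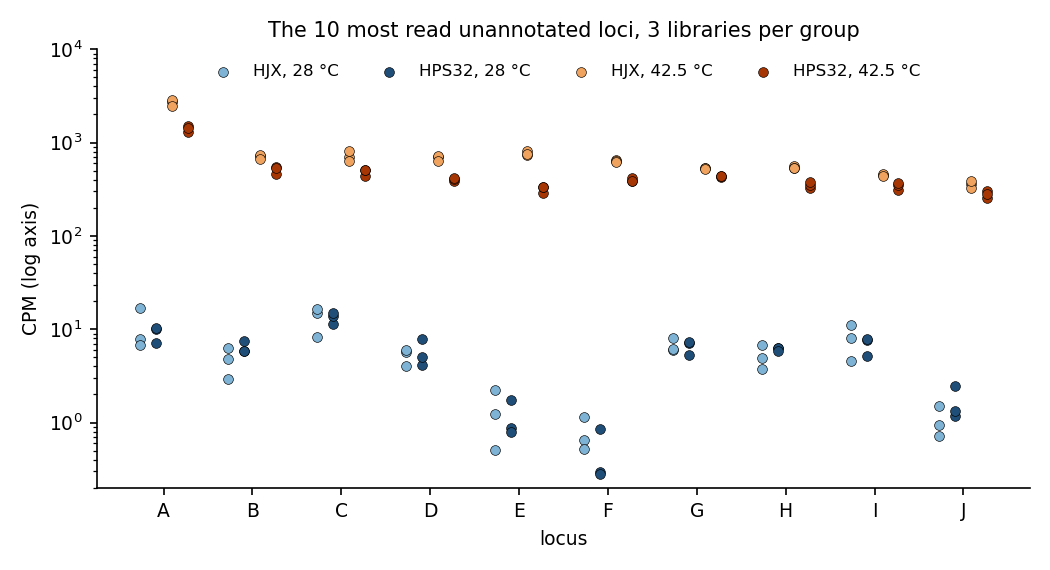
CPM (y axis, log scale) of the 10 most read unannotated loci, chosen by and lettered A to J in order of mean level over all 12 libraries, with 1 point per library and 4 groups of 3 libraries per locus. For every locus all heat libraries lie above all libraries at 28 °C, and locus A reaches 2848 CPM.

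Apart from the gene near locus I, the annotated genes nearest to these loci were read far less than the loci under heat. The nearest gene was within 1 kb only for loci A, B and G. Os04g0542302, a gene with a TCP-type transcription factor domain 302 bases from locus A on the other strand, rose from 0.450 ± 0.198 to 6.01 ± 1.34 CPM in HJX and from 0.384 ± 0.175 to 4.42 ± 0.449 CPM in HPS32. Os12g0222300, 8628 bases from locus C and without a description, fell from 9.62 ± 0.516 to 0.237 ± 0.119 CPM in HJX and from 6.43 ± 1.01 to 0.139 ± 0.130 CPM in HPS32. Os02g0254700, a spermidine synthase-type gene near locus I, was the closest in level. It went from 139 ± 3.34 to 246 ± 7.08 CPM in HJX and from 151 ± 5.63 to 171 ± 3.6 CPM in HPS32. Its log2 rise was 0.83 ± 0.06 in HJX and 0.18 ± 0.06 in HPS32. Os01g0572700, an EF-hand gene near locus J, rose by 1.04 ± 0.10 and 1.00 ± 0.10, to 25.3 ± 1.08 and 24.1 ± 0.961 CPM. The nearest genes of the other 6 loci were too little read to be tested, with group means of at most 0.526 CPM.

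Across the tested loci, rises under heat outnumbered falls in both lines. In HJX, 626 of the 1246 tested loci (50.2%) rose and 254 (20.4%) fell at an adjusted p under 0.05, while of all 25473 features 38.1% were called higher and 36.8% lower. In HPS32, 642 loci (51.5%) rose and 217 (17.4%) fell, against 34.0% and 36.4% of all features. The median log2 change of the tested loci was 0.67 in HJX and 0.75 in HPS32, and that of all features was 0.03 and -0.03. With the 52 and 53 loci unread in 1 group set to their bound, the medians of the loci were 0.67 and 0.72. Scaling by total counts gave 715 rises and 181 falls in HJX and 842 rises and 125 falls in HPS32, which puts 87.1% of the calls in HPS32 on the side of rises instead of 74.7%.

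As a ratio to the share of all features, the excess of the loci was widest among large rises. In percentage points it was widest for rises of at least 2-fold. At least 2-fold rises were called for 513 loci (41.2%) in HJX and 522 (41.9%) in HPS32, against 19.8% and 17.4% of all features, and falls of that size for 177 (14.2%) and 140 (11.2%), against 22.5% and 18.8%. At least 16-fold rises were called for 112 loci (8.99%) in HJX and 95 (7.62%) in HPS32, against 1.48% and 1.1% of all features. At least 64-fold rises were called for 44 loci (3.53%) and 25 loci (2.01%), against 0.408% and 0.236%. For falls of at least 16-fold the loci were close to all features, with 23 loci (1.85%) in HJX and 12 (0.963%) in HPS32 against 2.01% and 1.08%. A locus unread at 28 °C passes the filter only through its heat libraries, and the tested loci had lower levels at 28 °C than annotated genes. Both bear on the shares of large rises, which were not counted without the filter. Without a filter on low counts, 666 loci rose and 279 fell in HJX among 1622 with a read, and 30% and 29% of all 33395 features with a read were called that way. In HPS32 the counts were 678 and 237, beside 26.6% and 28.2% of all features.

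The loci called in each line were largely the same, as they were over all features. Rises in both lines were called for 534 loci, which is 85.3% of those that rose in HJX and 83.2% of those that rose in HPS32. Over all features the shared rises were 74.5% and 83.5% of the rises in each line, and 28.4% of features were called higher in both. Falls in both lines were called for 189 loci, 74.4% and 87.1% of the falls in each line. Over all features the shared falls were 81.2% and 82.2% of the falls, and 29.9% of features were called lower in both. Opposite calls in the lines were made for 10 loci (0.803%), against 2.05% of all features. The lines share no libraries in these comparisons.

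**Figure D3:**
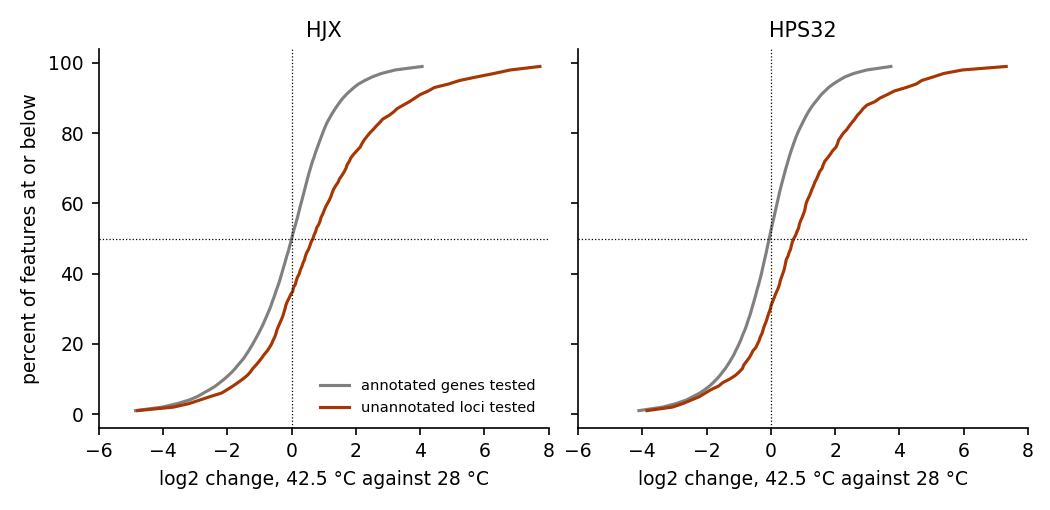
Cumulative distribution of the log2 change with heat (x axis) for the 1246 tested unannotated loci and for tested annotated genes, in HJX and in HPS32, with the percent of features at or below each change on the y axis. The curve of the unannotated loci lies to the right of that of annotated genes over most of the range, and its midpoint is at 0.67 in HJX and 0.72 in HPS32.

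A set of 39 loci was close to unread at 28 °C and present in every heat library. They had at most 3 reads in the 6 libraries at 28 °C together and at least 10 in each of the 6 heat libraries. This is 2.35% of the 1658 loci, while 77 of all 40674 rows (0.189%) met the same condition. The 2 shares have unlike bases, since loci are taken to be listed where reads were assembled. No read at 28 °C was found for 7.72% of the loci and for 22.5% of all rows. Of the 39, 14 had no read at all at 28 °C, 36 had no description and 29 lay farther than 1 kb from an annotated gene. Their exon length had a median of 766 bases, and their mean level under heat ran from 0.930 to 22.2 CPM in HJX and from 0.538 to 9.84 CPM in HPS32. Under heat 13 of the 39 were called lower in HPS32 than in HJX, a difference called for 23.6% of all features. Of the 3 with a description, 1 on chromosome 2 from 14871919, named after its values were seen, matches FAR1-RELATED SEQUENCE 5, one of a plant family of transcription factors derived from transposases, and the other 2 carry a SWIM zinc finger and a zinc knuckle.

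Loci unread at 28 °C and named for their rise included those on chromosome 4 from 18611036, chromosome 7 from 281755 and chromosome 4 from 34697284, each farther than 1 kb from an annotated gene. The locus from 18611036 had 254, 338 and 251 reads in the HJX heat libraries and 170, 81 and 107 in those of HPS32, at least 78.3-fold and 28.8-fold higher than at 28 °C. The locus from 281755 had 189, 193 and 272 reads in HJX and 143, 147 and 166 in HPS32, at least 59.6-fold and 36.8-fold higher. The locus from 34697284 had 209, 227 and 227 reads in HJX and 45, 47 and 43 in HPS32, at least 61.1-fold and 10.9-fold higher. All 3 were lower in HPS32 than in HJX under heat, with log2 differences of -1.41 ± 0.27, -0.67 ± 0.17 and -2.45 ± 0.20 in this order (adjusted p = 0.00186, 0.00506 and 1.05e-07).

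The zinc-knuckle locus (chromosome 10, ending at 17702738, 317 bases of exon) belongs to this set, and a zinc knuckle is a small nucleic-acid binding fold common in retroelement proteins. It had no read at 28 °C, 43, 260 and 63 reads in the HJX heat libraries and 33, 34 and 31 in those of HPS32. Heat library 2 of HJX stood far above the rest, and the other 5 heat libraries lay close together. The rise in HJX was at least 35-fold (adjusted p = 0.0117, range over its alternatives 3.92e-09 to 0.0812). In HPS32 the level was at least 7.92-fold higher and the adjusted p was 0.0588, so the change was not called. Its call in HJX was lost with a replicate block at 28 °C, a fit whose heat changes are not taken against the group mean.

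Loci with a few reads at 28 °C rose as far. The locus on chromosome 2 from 9894262 (3428 bases of exon, 608 bases upstream of Os02g0272400) had 1, 0 and 0 reads in HJX and 0, 1 and 4 in HPS32 at 28 °C. Under heat it had 801, 894 and 863 reads in HJX but 106, 69 and 65 in HPS32. On chromosome 7 a locus from 12534754 (5171 bases of exon) had 3, 3 and 4 reads in HJX at 28 °C and 1691, 1422 and 2077 under heat, and in HPS32 it went from 2, 0 and 1 to 917, 1405 and 1294 reads. Another on chromosome 1 from 14606451 went from 4, 0 and 3 reads to 229, 142 and 407 in HJX, and from 0, 1 and 0 to 322, 488 and 355 in HPS32. That on chromosome 5 from 28928302 was unread in HPS32 at 28 °C and at least 22.5-fold higher under heat.

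The opposite pattern, at least 10 reads in every library at 28 °C and at most 3 under heat, was met by a single trehalose-phosphate synthase-like locus. This is 0.0603% of the loci, against 0.0615% of all rows. The locus lies on chromosome 1, ending at 23669939, 3239 bases from Os01g0602400. It matches a probable trehalose-phosphate synthase 10, and the domain found in it was a trehalose-phosphatase domain. It had 100, 60 and 29 reads in HJX and 196, 102 and 56 in HPS32 at 28 °C, against 0, 0 and 0 in HJX and 1, 0 and 0 in HPS32 under heat. The libraries at 28 °C differed among themselves by more than 3-fold in each line, and the level in HJX was at least 25.4-fold lower under heat (adjusted p = 0.000715). In HPS32 the level went from 8.52 ± 5.32 to 0.0171 ± 0.0296 CPM (adjusted p = 0.000247).

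Several well-read loci without a description fell steeply under heat. That on chromosome 12 from 1302251 stood at 43.9, 42.4 and 34.6 CPM in HJX at 28 °C and at 1.02, 0.811 and 0.472 CPM under heat. It fell by 5.72 ± 0.24 on the log2 scale in HJX and fell by 6.23 ± 0.26 in HPS32 (adjusted p = 2.73e-12 and 3.15e-12). A chromosome 4 locus from 6831626 stood at 45.1, 38.2 and 34.6 CPM and then 0.538, 0.686 and 0.629 CPM in HJX, and fell by 5.97 ± 0.20 there and fell by 4.89 ± 0.17 in HPS32. A chromosome 9 locus from 19039725 fell by 5.04 ± 0.16 in HJX and fell by 4.54 ± 0.15 in HPS32, and the groups of these loci did not overlap.

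Among described falls, the locus on chromosome 9 from 12454370 matches STRICTOSIDINE SYNTHASE-LIKE 10, of an enzyme family first known from alkaloid synthesis. It went from 35.5 ± 5.38 to 0.705 ± 0.448 CPM in HJX and from 33.6 ± 3.56 to 1.67 ± 0.888 CPM in HPS32. A chromosome 7 locus from 26519853 matches disease resistance response protein 206, a dirigent protein of lignan synthesis known from pea, and lies 2531 bases from Os07g0637700. It went from 14.6 ± 0.639 to 0.660 ± 0.139 CPM in HJX and from 22.1 ± 1.01 to 1.47 ± 0.738 CPM in HPS32. Without a description, a chromosome 6 locus from 27672422 fell by 5.61 ± 0.43 in HJX and fell by 3.23 ± 0.31 in HPS32, and that on chromosome 11 from 16454516 fell by 5.47 ± 0.39 and fell by 2.76 ± 0.30.

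Loci without a description and loci with one differed in the balance of their calls. Of the 982 tested loci without a description, 504 rose and 177 fell in HJX, and 520 rose and 147 fell in HPS32, with median log2 changes of 0.76 and 0.87. Of the 264 tested loci with a description, 122 rose and 77 fell in HJX, and 122 rose and 70 fell in HPS32, with medians of 0.30 and 0.31. Of all features, 38.1% rose and 36.8% fell in HJX, and 34.0% rose and 36.4% fell in HPS32. The counts of each class below are to be read beside these shares. The classes of described loci were made from their wording with earlier results of these data known, and they are small.

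The 22 tested loci with disease resistance or leucine-rich repeat wording, the kind of receptor that detects pathogens inside plant cells, had 12 rises and 6 falls in HJX and 12 rises and 4 falls in HPS32. The largest called rise in HPS32 was that of a locus on chromosome 1 from 11852966 with an NB-ARC domain and a match to RPP13-like protein 3, which went from 2.39 ± 0.111 to 14.8 ± 1.18 CPM. Another RPP13-like locus, on chromosome 11 from 9134655, fell from 1.67 ± 0.409 to 0.0407 ± 0.0353 CPM in HJX and from 1.09 ± 0.347 to 0.155 ± 0.136 CPM in HPS32. Under heat 8 of the 22 were called higher in HPS32 than in HJX, a difference called for 21.6% of all features.

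Of 21 tested loci with DNA-binding or transcription factor wording, 7 rose and 7 fell in HJX, and 6 rose and 9 fell in HPS32, with median log2 changes of -0.19 and -0.09. These few calls lie near the shares of all features, of which 38.1% rose and 36.8% fell in HJX and 34.0% and 36.4% in HPS32. A NAC-type locus on chromosome 7 from 2022813, matching JUNGBRUNNEN 1, a regulator of ageing and stress tolerance in Arabidopsis, rose by 2.28 ± 0.26 in HJX and 3.99 ± 0.29 in HPS32. A WRKY-type locus on chromosome 12 from 836401 went from 2.19 ± 1.33 to 0.0208 ± 0.0360 CPM in HJX. A locus on chromosome 1 from 5163049 matching the bHLH041 factor fell by 1.98 ± 0.16 in HJX and fell by 2.59 ± 0.17 in HPS32.

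Of 40 tested loci with metabolic enzyme wording, 19 rose and 15 fell in each line. The falls lie near the shares of all features, 36.8% in HJX and 36.4% in HPS32. The largest rise was that of a locus on chromosome 11 from 14543194, with 6824 bases of exon and a match to chain 1 of the NADH-ubiquinone oxidoreductase, a subunit of mitochondrial complex I. It stood at 3.71, 2.81 and 3.33 CPM in HJX at 28 °C and at 219, 225 and 211 CPM under heat. In HPS32 it stood at 3.30, 2.99 and 3.38 CPM and then at 107, 111 and 107 CPM. The libraries of each group lay close together, and the rise was 6.06 ± 0.09 in HJX and 5.07 ± 0.09 in HPS32, with the response lower in HPS32 by 0.99 ± 0.14 (adjusted p = 3.78e-05; not called in a test against 2-fold).

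Of 31 tested loci with wording of mobile-element domains other than the transposon words of the selection, 16 rose and 9 fell in HJX and 17 rose and 7 fell in HPS32. A SWIM zinc finger locus on chromosome 5 from 26010067 was unread in HPS32 at 28 °C and at least 10.2-fold higher under heat, at 2.19 ± 0.353 CPM. A locus on chromosome 3 from 6599824 with the catalytic domain of Ulp1, a protease that removes the small protein SUMO and that some transposons carry, went from 2.96 ± 0.930 to 0.0383 ± 0.0335 CPM in HJX. Of 17 kinase-like loci, 8 rose and 3 fell in each line, led in HJX by an ATR-like locus (ATR is a kinase of the DNA damage checkpoint) on chromosome 6 from 30811000, at 0.507 ± 0.250 and then 4.88 ± 1.16 CPM. Of 11 loci with wording of ubiquitin ligase parts, which tag proteins for degradation, 5 rose and 2 fell in HJX and 8 rose and 2 fell in HPS32.

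The remaining classes, apart from that of other described loci, had under 10 tested loci each. Of 4 chaperone-like loci, 2 rose in each line and 1 fell in HPS32. A DnaJ-type locus on chromosome 1 from 9764404, of the co-chaperones that deliver proteins to Hsp70, went from 3.77 ± 1.02 to 13.8 ± 1.67 CPM in HJX and from 3.32 ± 0.665 to 6.82 ± 1.36 CPM in HPS32. The other DnaJ-type locus named, on chromosome 12 from 19634691, fell by 0.49 ± 0.07 in HPS32, which turned to 0.08 under total counts. Among 9 transport-related loci 4 rose and 4 fell in HJX. They include a pair that match the anion channel SLAH3 and overlap on opposite strands of chromosome 8, from 5712125 and from 5712562, with group means of at most 1.13 CPM. A class of 101 other described loci had 45 rises and 29 falls in HJX, and a locus in it on chromosome 4 from 12296871, matching a factor of DNA methylation, went from 0.0244 ± 0.0423 to 1.23 ± 0.878 CPM in HPS32.

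Among the loci, long ones rose most often. Of the 64 tested loci with at least 4 kb of exon, 53 rose and 5 fell in HJX and 54 rose and 7 fell in HPS32, with median log2 changes of 1.71 and 1.78. Over all features, 38.1% rose and 36.8% fell in HJX, and 34.0% rose and 36.4% fell in HPS32. Calls of annotated genes were not counted by length, so only medians are compared with them. In the bins of shorter loci the medians lay between 0.58 and 0.81 in HJX and between 0.65 and 0.89 in HPS32. Annotated genes of at least 4 kb had medians of 0.28 and 0.16 (775 genes), and those of at least 500 but under 1000 bases -0.27 and -0.24. Loci that were a single block had medians of 1.11 and 1.1 (223 tested), against 0.56 and 0.65 for those of several blocks, while annotated genes had medians of -0.06 to 0.01 in either form. The share of tested loci that rose in HJX ran from 38.6% on chromosome 12 to 56.1% on chromosome 7, against 38.1% of all features.

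Loci close to an annotated gene resembled it more than loci far from one. The log2 heat changes of a locus and of its nearest gene were compared where both were tested, in 881 pairs. These pairs share libraries and, where they adjoin, possibly reads, so the correlations across loci are descriptions and loci are not independent replicates. For the 84 loci upstream of a gene on the same strand within 1 kb, Pearson's r was 0.428 in HJX and 0.447 in HPS32 (Spearman's rho 0.494 and 0.448), and of pairs with both called, 78.6% and 81.6% went the same way. For the 53 loci downstream on the same strand r was 0.293 and 0.376, and for the 176 on the other strand 0.360 and 0.255. At 1 to 5 kb r was 0.275 and 0.202 over 354 pairs. Beyond 5 kb it was -0.03 and -0.08 over 212 pairs, with 50% and 47.1% of the called pairs going the same way. Pairs of neighbouring annotated genes had r of 0.315 and 0.284 within 1 kb on the same strand, 0.130 and 0.127 on the other strand, and 0.117 and 0.103 beyond 5 kb.

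**Figure D4:**
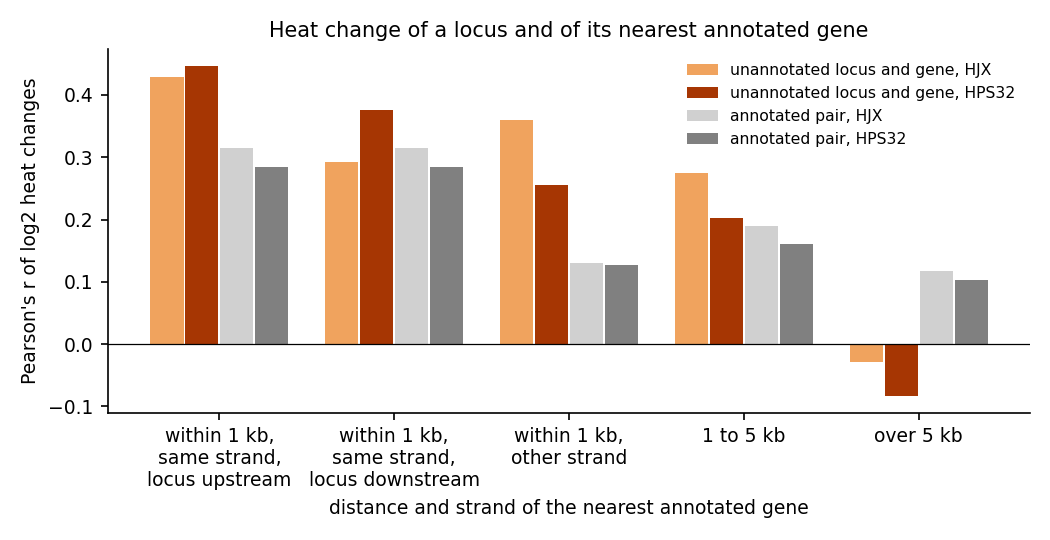
Pearson's r between the log2 heat change of an unannotated locus and that of its nearest annotated gene (y axis), by distance and strand (x axis), in both lines, beside the same value for pairs of neighbouring annotated genes (grey). The value is 0.428 and 0.447 for loci within 1 kb upstream on the same strand and -0.03 and -0.08 beyond 5 kb; both same-strand classes are set beside the same annotated pairs.

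Some loci adjoined each other. Runs of loci no more than 5 kb apart numbered 161 and held 347 loci, with at most 5 in a run. In HJX, 43 runs had at least 2 called loci, and in 32 of them all calls went the same way, 25 higher and 7 lower. In HPS32 the counts were 30 of 39 runs, 26 higher and 4 lower. Rises made up 71.1% of all called loci in HJX and 74.7% in HPS32, and no test compared the runs with loci farther apart.

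At 28 °C the lines were close to alike in these loci. edgeR called 0 of 1246 higher and 2 lower in HPS32 than in HJX, beside 0.0432% of all features in each direction, and 106 loci (8.51%) had an unadjusted p under 0.05, against 6.54% of all features. DESeq2 called 2 higher and 3 lower, and limma-voom 1 higher and 2 lower. A replicate block at 28 °C gave 2 higher and 4 lower calls. With each library left out in turn edgeR called 0 to 1 higher and 0 to 2 lower, and no lower call was left without library 2 of HPS32 at 28 °C.

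The called loci were a MADS-box locus and a locus without description. The first, on chromosome 4 from 19042625, matches AGL21, a MADS-box transcription factor known from Arabidopsis roots. It stood at 18.0, 15.9 and 20.6 CPM in HJX and 9.60, 11.2 and 11.8 CPM in HPS32 at 28 °C, without overlap, a log2 difference of -0.74 ± 0.12 (adjusted p = 0.0206). Under heat its libraries stood at 12.3, 13.5 and 12.4 CPM in HJX and 13.1, 14.2 and 13.5 CPM in HPS32. The second, on chromosome 5 from 20148460 (3248 bases of exon), stood at 13.5, 15.7 and 12.9 CPM in HJX and 8.94, 7.62 and 7.47 CPM in HPS32 at 28 °C, a log2 difference of -0.81 ± 0.15 (adjusted p = 0.0329, above 0.05 without library 1 or library 2 of HJX at 28 °C, among others). Under heat the order was the other way, at 5.02, 6.80 and 5.56 CPM in HJX and 9.03, 10 and 10.1 CPM in HPS32, with a log2 difference of 0.75 ± 0.15 (adjusted p = 0.00037).

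The block added 4 calls at 28 °C, named here after their values were seen. A chromosome 2 locus from 20567936 stood at 4.95, 5.81 and 9.40 CPM in HJX and 1.61, 2.92 and 3.94 CPM in HPS32. A terpene synthase-like locus on chromosome 4 from 16213635 stood at 50.3, 66.0 and 66.6 CPM in HJX and 36.3, 45.2 and 49.4 CPM in HPS32. Higher in HPS32 were the loci on chromosome 8 from 26754254, at 9.17, 6.14 and 8.53 against 15.0, 12.4 and 16.4 CPM, and on chromosome 12 from 22287875, at 0.583, 0.196 and 0.289 against 3.08, 1.78 and 1.90 CPM. Of these 4, DESeq2 also called the loci from 20567936, 26754254 and 22287875, the fit without a filter on low counts those from 26754254 and 22287875, and limma-voom that from 26754254.

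Under heat many loci differed between the lines. Of the 1246 tested, 219 (17.6%) were higher and 202 (16.2%) lower in HPS32 than in HJX, against 21.6% and 23.6% of all features. The median log2 difference of the loci was 0.11 and that of all features 0.03. Scaling by total counts gave 398 higher and 136 lower, so that 74.5% of the calls were higher in HPS32 instead of 52.0%. The direction over all called loci therefore rests on the scaling, and single loci are given with their levels.

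The most read loci were mostly lower in HPS32 than in HJX under heat with TMM scaling. Of the 10 most read, 9 were called lower in HPS32 under heat, with a median log2 difference of -0.60, and 5 of them were called lower under total counts and 8 under scaling by relative log expression (RLE). Locus E differed most, with 806, 741 and 749 CPM in HJX and 291, 331 and 333 CPM in HPS32, a log2 difference of -1.27 ± 0.18 (adjusted p = 0.000186). Locus I was not called (log2 -0.38 ± 0.20, adjusted p = 0.16). Of the 534 loci that rose in both lines, 136 were lower and 64 higher in HPS32 under heat, a balance that turned to 93 lower and 131 higher under total counts. Of the 189 that fell in both lines, 8 were lower and 54 higher in HPS32, and 5 and 81 under total counts. With TMM, 23.6% of all features were called lower and 21.6% higher in HPS32 under heat. The same split was not made for all features that rose or fell in both lines, so these balances are not particular to the loci.

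Some loci rose under heat in HJX and were not called in HPS32. A locus of this kind on chromosome 12 from 25153232 to 25159191 is 5960 bases long in a single block, without a description and 2537 bases from Os12g0598600. It had 11, 28 and 27 reads in HJX and 20, 12 and 20 in HPS32 at 28 °C. Under heat it had 858, 1151 and 1003 reads in HJX and 30, 22 and 17 in HPS32. Every HJX heat library was far above all others, and the HPS32 heat libraries lay within the range at 28 °C or next to it. The heat response was lower in HPS32 by 5.30 ± 0.46 on the log2 scale (adjusted p = 9.52e-07, range over its alternatives 2.14e-34 to 2.96e-05).

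A chromosome 10 locus from 13756322 had the same pattern and carries a BAH domain, a fold known from chromatin proteins. It stood at 0.874, 0.522 and 1.66 CPM in HJX and 1.39, 1.99 and 1.48 CPM in HPS32 at 28 °C, and at 18.4, 20.4 and 12.1 CPM in HJX and 1.03, 1.12 and 0.876 CPM in HPS32 under heat. Its response was lower in HPS32 by 4.74 ± 0.46 (adjusted p = 4.95e-07). On chromosome 4 a locus from 9977974 stood at 15.9 ± 1.65 CPM in HJX and 2.57 ± 0.501 CPM in HPS32 under heat, from 2.51 ± 0.664 and 3.09 ± 0.678 CPM at 28 °C, and its response was lower by 2.94 ± 0.31 (adjusted p = 1.20e-06). All 3 calls stood under every alternative run.

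Other loci rose in both lines but less in HPS32. That on chromosome 2 from 20567936 stood at 67.5, 77.4 and 73.8 CPM in HJX and 6.51, 5.86 and 7.11 CPM in HPS32 under heat, a log2 difference of -3.49 ± 0.23 (adjusted p = 2.00e-07). Another chromosome 2 locus, from 9894262, stood at 49.6 ± 5.47 CPM in HJX and 4.15 ± 1.12 CPM in HPS32, a difference of -3.57 ± 0.20 (adjusted p = 4.39e-10). That on chromosome 7 from 4111038 stood at 13.9 ± 2.51 and 1.52 ± 0.505 CPM, and that on chromosome 10 from 8816133 at 6.21 ± 0.591 and 1.74 ± 0.811 CPM. A single locus met the condition for reads in 1 line alone: the one on chromosome 3 from 27442342, 52 bases from Os03g0687700 on the other strand. It had 16, 15 and 17 reads in HJX under heat, 2, 0 and 0 in HPS32 under heat, and no read at 28 °C, and 14 of all rows met that condition.

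Other loci were higher in HPS32 under heat. A chromosome 8 locus from 28315720 stood at 6.52, 7.24 and 7.60 CPM in HJX and 21.0, 22.6 and 20.8 CPM in HPS32, with 5.84 ± 1.11 and 6.50 ± 1.94 CPM at 28 °C. It rose in HPS32 by 1.72 ± 0.17, and its log2 change in HJX was 0.28 ± 0.19 (adjusted p = 0.172). The locus on chromosome 7 from 15009005 stood at 1.91 ± 0.641 CPM in HJX and 6.21 ± 0.462 CPM in HPS32, and that on chromosome 1 from 8503852 at 1.41 ± 0.752 and 4.61 ± 1.18 CPM. Among named loci that fell in both lines, that on chromosome 6 from 27672422 was higher in HPS32 under heat, at 0.119 ± 0.0637 CPM in HJX against 0.724 ± 0.329 CPM, as were those on chromosome 11 from 16454516, at 0.0989 ± 0.0403 against 0.486 ± 0.159 CPM, and on chromosome 4 from 13343061, at 0.543 ± 0.482 against 1.72 ± 0.503 CPM. The WRKY-type locus on chromosome 12 from 836401 had 0, 1 and 0 reads in HJX and 9, 5 and 5 in HPS32 (adjusted p = 0.0322, range over its alternatives 0.00259 to 0.47). The bHLH041-like locus on chromosome 1 from 5163049 was lower in HPS32, at 3.97 ± 0.399 against 2.58 ± 0.141 CPM, a log2 difference of -0.62 ± 0.18 (adjusted p = 0.00905).

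The test of the difference between the heat responses called 89 loci (7.14%) higher and 91 (7.30%) lower in HPS32, against 13.3% and 16% of all features. Of the 91, 54 rose in both lines, 21 rose in HJX and were not called in HPS32, and 4 rose in HJX and fell in HPS32. Of the 89, 26 were not called in HJX and rose in HPS32, 25 fell in both lines, 21 rose in both, 9 fell in HJX and were not called in HPS32, and 6 fell in HJX and rose in HPS32. Total counts gave 179 higher and 54 lower, a share of 76.8% higher instead of 49.4%. Without heat library 3 of HPS32, 59 loci were called higher.

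**Figure D5:**
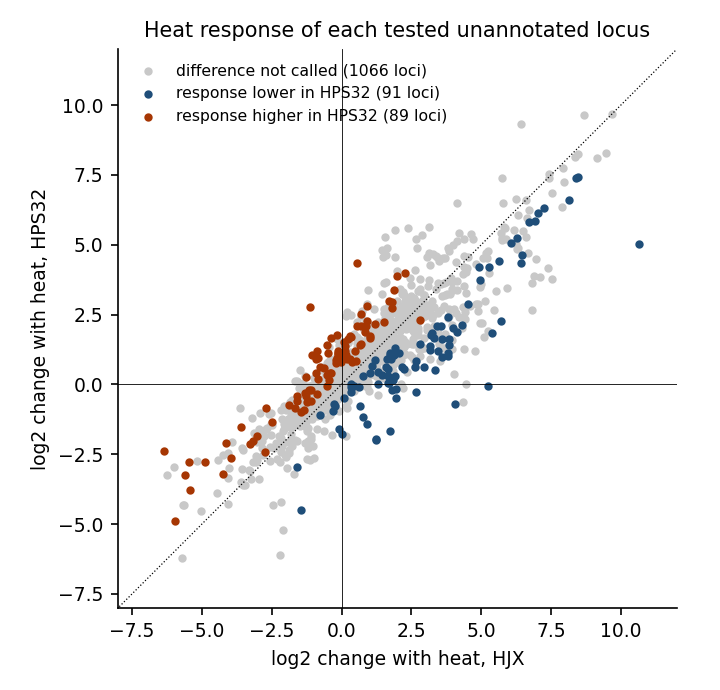
Log2 change with heat in HJX (x axis) and in HPS32 (y axis) for each of the 1246 tested unannotated loci, coloured by the test of the difference between the lines, with the dotted line where both are equal; loci unread in 1 group are drawn at their bound. Most points follow the diagonal, 91 loci are called below it and 89 above it.

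Of the named loci, 29 were called by this test, 15 with a lower and 14 with a higher response in HPS32. Of the 14, 6 fell in both lines and 3 rose in both, 2 fell in HJX and were not called in HPS32, 2 were not called in HJX and rose in HPS32, and 1 fell in HJX and rose in HPS32. A chromosome 6 locus from 23013085 went from 15.0 ± 1.59 to 0.494 ± 0.229 CPM in HJX and from 9.21 ± 1.54 to 1.35 ± 0.505 CPM in HPS32, a difference of 2.12 ± 0.41 (adjusted p = 0.000727). A locus on chromosome 7 from 28050923, 444 bases upstream of Os07g0664400, matches momilactone A synthase, an enzyme that makes a rice diterpenoid defence compound. It went from 5.91 ± 1.00 to 0.336 ± 0.148 CPM in HJX and from 3.04 ± 1.18 to 0.711 ± 0.130 CPM in HPS32, a difference of 2.05 ± 0.54 (adjusted p = 0.00742). The loci on chromosome 6 from 11128793 and chromosome 9 from 18001246 rose in both lines and more in HPS32, to 4.64 ± 0.542 against 2.43 ± 0.719 CPM and to 5.66 ± 0.752 against 2.33 ± 0.661 CPM.

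On chromosome 3, 37 loci lie within 5 Mb of TT2, of which 31 were tested. At 28 °C edgeR called 0 of them different between the lines, DESeq2 also 0, and 3 had an unadjusted p under 0.05, with a lowest adjusted p of 0.49. Under heat 11 were higher and 5 lower in HPS32, 51.6% called against 33.3% of the other loci and 45.2% of all features. The difference of the heat responses was called for 19.4% of them, against 14.3% of the other loci and 29.3% of all features. No test compared these shares.

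In the authors' deposited table, 590 loci had an adjusted p under 0.05 and were higher under heat in HJX, and 242 lower. The authors' deposited table gave 615 higher and 203 lower in HPS32, 2 and 2 for the lines at 28 °C, and 186 higher and 218 lower in HPS32 under heat.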

How the data were processed

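The submitters' processing notes name HISAT2 2.0.5 for alignment and featureCounts 1.5.0-p3 for counting, and the deposited raw counts per feature were used. The authors also deposited log2 fold changes with p-values for 4 comparisons, for which the notes name DESeq2 1.20.0, and these served only for comparison. The 12 FPKM columns and the 8 group means were not used. The genome build, the annotation release, the tool that added unannotated loci and the strand setting are not given in the sources used here. Heat columns carry numbers that cannot be tied to replicate numbers and are called heat libraries 1 to 3.

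The members and lists were chosen with earlier results of these data known. All 25473 features that passed edgeR's filterByExpr were fitted together in edgeR 4.0.16 (quasi-likelihood test, TMM, 12 libraries, 4 groups), with Benjamini-Hochberg adjustment over all of them and a threshold of 0.05. SEs are the log2 change divided by the root of F. Lower bounds of folds use 3 counts per library, and such floors cover counting error only. Named loci were the 6 largest rises and falls per comparison among called loci of average log2 CPM of at least 1 without overlap of groups (a condition dropped for the difference of responses), the 10 most read, the extreme called locus of each wording class, loci read in 1 line alone, and a pair named in earlier work. Where a locus outside this rule is named, the text says so.

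The alternatives comprised scaling by RLE or by total counts, dropping the filter or asking for a CPM of 1 or more in 3 or more libraries, testing with limma-voom (limma 3.58.1) or with DESeq2 1.42.0, the compared groups alone, a test against 2-fold, each library left out, loci overlapping genes or with mobile-element wording left out, and a replicate block at 28 °C. The labels number the libraries at 28 °C in both lines but do not say what a number shares. Deviations from the group means over genes of average log2 CPM of at least 1 had correlations of 0.426, 0.113 and 0.403 for equal numbers and -0.431 to 0.0748 for unequal ones, so the numbers were taken to pair the libraries. Over all tested features the values for equal numbers were 0.289, 0.0756 and 0.275, so this pairing is weak. The block coded the heat libraries, which have no usable number, like number 1. Its heat changes are thus taken against the fitted level of number 1 at 28 °C, not against the group mean. In a test on simulated data with the same design, the fit recovered 66 to 80% of genes changed 2-fold and 90 to 99% of those changed 4-fold over the 5 comparisons. Of its calls, 4.3 to 6.59% were false. The changed genes were drawn from those with a mean over 1 CPM and were a small part of all features. These shares therefore do not cover loci of lower level, or data in which most features change.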

Additional observations from a re-analysis of the deposited data

Results flagged for a closer look

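The heat response of 29 named loci differed between the lines by the test of that difference, given here as the log2 response of HPS32 minus that of HJX. It was lower in HPS32 for the loci on chromosome 12 from 25153232 (-5.30), chromosome 10 from 13756322 (-4.74), chromosome 10 from 8816133 (-3.54), chromosome 7 from 4111038 (-3.45), chromosome 4 from 9977974 (-2.94), chromosome 2 from 20567936 (-2.25), chromosome 6 from 30811000 (-1.40), chromosome 11 from 14543194 (-0.99), chromosome 1 from 9764404 (-0.84) and chromosome 12 from 19634691 (-0.57). It was also lower for 4 of the 10 most read, on chromosome 1 from 22029133 (-1.0), chromosome 3 from 1131843 (-0.91), chromosome 6 from 21936838 (-0.88) and chromosome 8 from 13481715 (-0.87). The locus on chromosome 2 from 9894262, with 1 read in HJX at 28 °C, had a lower response with an adjusted p of 0.00594, which rose above 0.05 without library 3 of HPS32 at 28 °C.

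The response was higher in HPS32 for the loci on chromosome 11 from 16454516 (2.71), chromosome 6 from 27672422 (2.37), chromosome 6 from 23013085 (2.12), chromosome 7 from 28050923 (2.05), chromosome 6 from 11128793 (1.86), chromosome 9 from 18001246 (1.84), chromosome 7 from 2022813 (1.70), chromosome 5 from 20148460 (1.56), chromosome 8 from 28315720 (1.44), chromosome 1 from 8503852 (1.31), chromosome 7 from 15009005 (1.24), chromosome 4 from 6831626 (1.09) and chromosome 4 from 19042625 (0.83). The locus on chromosome 12 from 836401, with 1 read in HJX under heat, had a higher response with an adjusted p of 0.046. The calls of the loci from 30811000, 836401 and 8503852 were each lost when any of 8 single libraries was left out, those from 22029133, 4111038 and 9764404 when any of 7 was, and that from 11128793 when any of 3 was. Under total counts, which raised the median difference of all features to 0.28, all 14 higher calls and 10 of the 15 lower calls remained.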

How the results depend on the processing

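The counts of calls kept within 1.5 times their value under most settings. A test against a 2-fold change gave 392 rises and 118 falls in HJX, 369 and 95 in HPS32, 2 higher and 39 lower between the heated lines, 0 and 9 for the difference of responses, and 0 lower at 28 °C. Total counts gave 125 falls in HPS32, 398 higher for the lines under heat, and 179 higher and 54 lower for the difference of responses, the cause of which was not tested beyond the shift of the median of all features. At 28 °C higher calls numbered 2 with DESeq2, 1 with limma-voom, 2 without a filter and 2 with the replicate block, and lower calls 0 in the compared groups alone and 4 with the block. Heat changes under the block are against the fitted level of number 1 at 28 °C, so heat calls lost to this coding and to the pairing cannot be told apart. The block moved no other count of calls by over 1.5 times. Among named loci it lost the heat calls of the loci on chromosome 10 from 2762167 (both lines) and the zinc-knuckle locus there (HJX), chromosome 4 from 9131520 (HPS32) and chromosome 8 from 5712125 (HJX), and added those of locus I between the lines under heat and of loci A and E for the difference of responses. It also added the calls at 28 °C given above, that of the chromosome 2 locus from 20567936 among them. It changed no other call of a named locus. With each library left out, rises ran from 596 to 647 and falls from 230 to 263 in HJX, from 610 to 659 and 198 to 224 in HPS32, the lines under heat from 152 to 227 higher and 177 to 219 lower, the difference of responses from 59 to 87 higher and 74 to 92 lower, and the lines at 28 °C from 0 to 1 higher and 0 to 2 lower. The difference in the share of reads ran from 1.47 to 1.5 points. The fall of the locus on chromosome 12 from 19634691 in HPS32 turned to 0.0753 under total counts. At these depths 412 of the 1658 loci had too few reads to be tested, and of the 372 with under 500 bases of exon 112 were tested; low depth and low expression cannot be told apart there.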
